A study of Mus musculus with 8 samples.

Results

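The matrix metalloproteases (MMPs), the ADAMTS proteases with their ADAMTS-like relatives, and the tissue inhibitors of metalloproteases (TIMPs) were followed in mouse gastrocnemius muscle. They were taken by symbol, as every gene whose name is Mmp, Adamts, Adamtsl or Timp with its number, which gave 51 of the 30743 genes in the table. Of these, 23 are MMPs, 19 are ADAMTS proteases, 5 are ADAMTS-like genes and 4 are TIMPs. Double transgenic (DTG) mice carry Mck-rtTA and TRE-myrAkt1, so that doxycycline switches on a myristoylated, constitutively active Akt1 in muscle fibres. Littermate controls (MckrtTA) carry Mck-rtTA alone. Both groups, of 4 mice each, drank doxycycline at 0.5 mg/ml for 2 weeks from an age of 4 months, and were starved overnight before the muscles were taken. The labels give the strain as Myo L8 for all mice and call the DTG mice male. The mutated Mck promoter that drives rtTA acts in myofibres and only in some muscles, the gastrocnemius among them, so expression of the transgene is directed to muscle fibres and not to the other cells of the tissue. Polyadenylated RNA was sequenced, 4 libraries on lane 1 (DTG mice 253 and 283, MckrtTA mice 255 and 281) and 4 on lane 8 (DTG mice 282 and 306, MckrtTA mice 280 and 307), so each lane held 2 mice of each group.

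MMPs and ADAMTS proteases are zinc enzymes, most of them secreted and some anchored in the membrane, that are made as inactive precursors and cut collagens, proteoglycans and other proteins outside the cell. TIMPs bind the active enzymes and block them, and Timp3 also blocks several ADAMTS proteases. In skeletal muscle the system is known for turning over the basement membrane and the connective tissue between fibres during growth, injury and repair, and fibroblasts and invading leukocytes as well as muscle cells make its parts.

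Of the MMP genes, 10 lie side by side on chromosome 9, between positions 7272514 and 7699416 (GRCm38, 426.9 kb), with 0 other rows of the table between them. A gene is called higher or lower here when limma gives an adjusted p under 0.005, adjusted over all genes tested, and the change is at least 2-fold. Of these 10 genes, Mmp13, Mmp12, Mmp3, Mmp8 and Mmp27 had enough signal to be tested, and all but Mmp27 were called higher in DTG muscle. Of all genes tested, 14.6% were called higher. Testing needed a signal of 25 in at least 3 libraries. Mmp13, Mmp8 and Mmp27 reached it through DTG mice alone, with all controls under 25, so they could be tested only if higher in DTG mice. Only Mmp12 and Mmp3 also reached it in controls. The 150 bases before the RefSeq start sites (build GRCm38.p6) of the tested genes of this run are shown, with those before the start of Timp1 on the X chromosome. Timp1 is the gene with the largest fitted change of the 43 tested. The starts of called genes can so be read beside that of Mmp27, which was not called over all mice. Mmp27 is not an unmoved gene. Its signal was 10.1 in DTG mouse 253 and 55.4 to 65.8 in the other DTG mice, against 13.9 to 18.0 in controls. Without mouse 253 it was called higher. RefSeq gives Mmp12 a pair of starts. Capitals mark 3 motifs, each searched on both strands: the AP-1 motif, spelled TGANTCA with N for any base, the core promoter box spelled TATAAA, and the PEA3 motif of Ets factors, spelled AGGAAG.
Mmp13, chr9:7272364-7272513, plus strand: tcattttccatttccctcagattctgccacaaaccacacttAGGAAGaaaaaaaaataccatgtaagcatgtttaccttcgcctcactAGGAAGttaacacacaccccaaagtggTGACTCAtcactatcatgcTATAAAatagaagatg
Mmp12, upstream start, chr9:7344247-7344396, plus strand: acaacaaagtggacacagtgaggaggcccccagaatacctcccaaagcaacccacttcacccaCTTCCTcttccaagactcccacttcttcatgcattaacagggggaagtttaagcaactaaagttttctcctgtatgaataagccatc
Mmp12, downstream start, chr9:7347224-7347373, plus strand: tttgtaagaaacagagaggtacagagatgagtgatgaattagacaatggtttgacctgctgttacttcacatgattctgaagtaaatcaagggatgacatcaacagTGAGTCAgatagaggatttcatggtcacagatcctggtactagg
Mmp3, chr9:7445672-7445821, plus strand: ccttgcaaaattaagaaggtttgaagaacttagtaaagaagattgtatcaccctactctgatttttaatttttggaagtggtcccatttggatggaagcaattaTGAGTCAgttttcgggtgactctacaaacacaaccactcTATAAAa
Mmp8, chr9:7558279-7558428, plus strand: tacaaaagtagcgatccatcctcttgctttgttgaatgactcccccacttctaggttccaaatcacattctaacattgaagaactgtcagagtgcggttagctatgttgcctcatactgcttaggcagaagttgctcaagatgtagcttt
Mmp27, chr9:7571246-7571395, plus strand: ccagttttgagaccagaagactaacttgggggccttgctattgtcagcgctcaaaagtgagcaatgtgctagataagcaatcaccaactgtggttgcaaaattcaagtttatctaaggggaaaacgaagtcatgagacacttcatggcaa
Timp1, chrX:20870016-20870165, plus strand: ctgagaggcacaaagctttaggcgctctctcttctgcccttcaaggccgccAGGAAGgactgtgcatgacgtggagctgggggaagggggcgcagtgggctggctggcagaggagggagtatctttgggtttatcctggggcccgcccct

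In the 250 bases before the start, an AP-1 motif was found in 3 of the 9 members called higher that had an entry (Mmp3, Mmp12 and Mmp13), in 0 of the 4 called lower and in 0 of the 15 tested but not called, where 7.8% of the 27025 genes with a promoter entry hold one. The motif was also found in 5 of the 8 members that were not tested because their signal was low or 0. All 8 members that hold it lie in the chromosome 9 run, and Mmp8 and Mmp27 of that run lack it. A PEA3 motif was found in 7 of the 9 members called higher and in 2 of the 4 called lower. It was found in 0 of the 15 not called and in 4 of the 8 not tested, beside 32.3% of all genes. The letters TATAAA were found in 2 of the 9 called higher and in 0 of the 4 called lower. They were found in 2 of the 15 not called and in 6 of the 8 not tested, beside 14.3% of all genes. The 15 not called include Mmp11, Mmp23, Mmp27 and Adamts17, which were called higher without DTG mouse 253. All of these are matches of letters in a window and were not tested for binding. In all, 36 of the 51 members had an entry.

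Values are signals, the estimated reads of a gene scaled so that the upper quartile is alike in all 8 libraries. Depth ran from 45.6 to 58.6 M reads per library. After scaling, 1 read corresponds to a signal of 1.25 to 1.68 for DTG mice and 2.25 to 2.97 for MckrtTA mice. The signal of Akt1 was 37986 to 69301 in DTG mice and 4047 to 5054 in controls, so each library fitted its label. The summed signal of the 6 myofibre markers (Ckm, Acta1, Mylpf, Tnnt3, Myh4, Pvalb) was 4294540 to 9681890 in DTG mice and 15691800 to 18005900 in controls, which is muscle in all 8 libraries. The total signal was 60.6 to 90.9 M in DTG and 132 to 136 M in controls, and with the deposited scaling the median log2 fold change of all genes was -0.26. Differences of members are to be read against that median.

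Of the 51 members, 43 passed the low-signal limit (at least 3 of the 8 libraries with a signal no lower than 25), and 17 of these were higher and 4 lower in DTG mice. Over all 15073 genes tested, 14.6% were called higher and 16.0% lower, against 39.5% and 9.3% of the members. The median log2 fold change of the tested members was 1.11. Mmp8, Mmp13, Mmp27, Adamts17 and Adamts19 passed the limit through DTG mice alone, with all controls under 25, and such a member could be tested only if it was higher in DTG mice. Mmp16 and Adamts18 also needed DTG mice to pass, because too few of their controls reached 25. The 4 DTG values all lay above the 4 control values in 20 members (22.2% of all genes) and all below them in 5 (40.4% of all genes), and the groups overlapped in 18. By class, 8 of 15 tested MMPs rose and 1 fell, 8 of 19 ADAMTS genes rose and 0 fell, 0 of 5 ADAMTS-like genes rose and 1 fell, and of the TIMPs 1 rose and 2 fell. In whole muscle, fewer cells of a type and less RNA per cell cannot be told apart, and neither can their opposites.

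**Figure D1:**
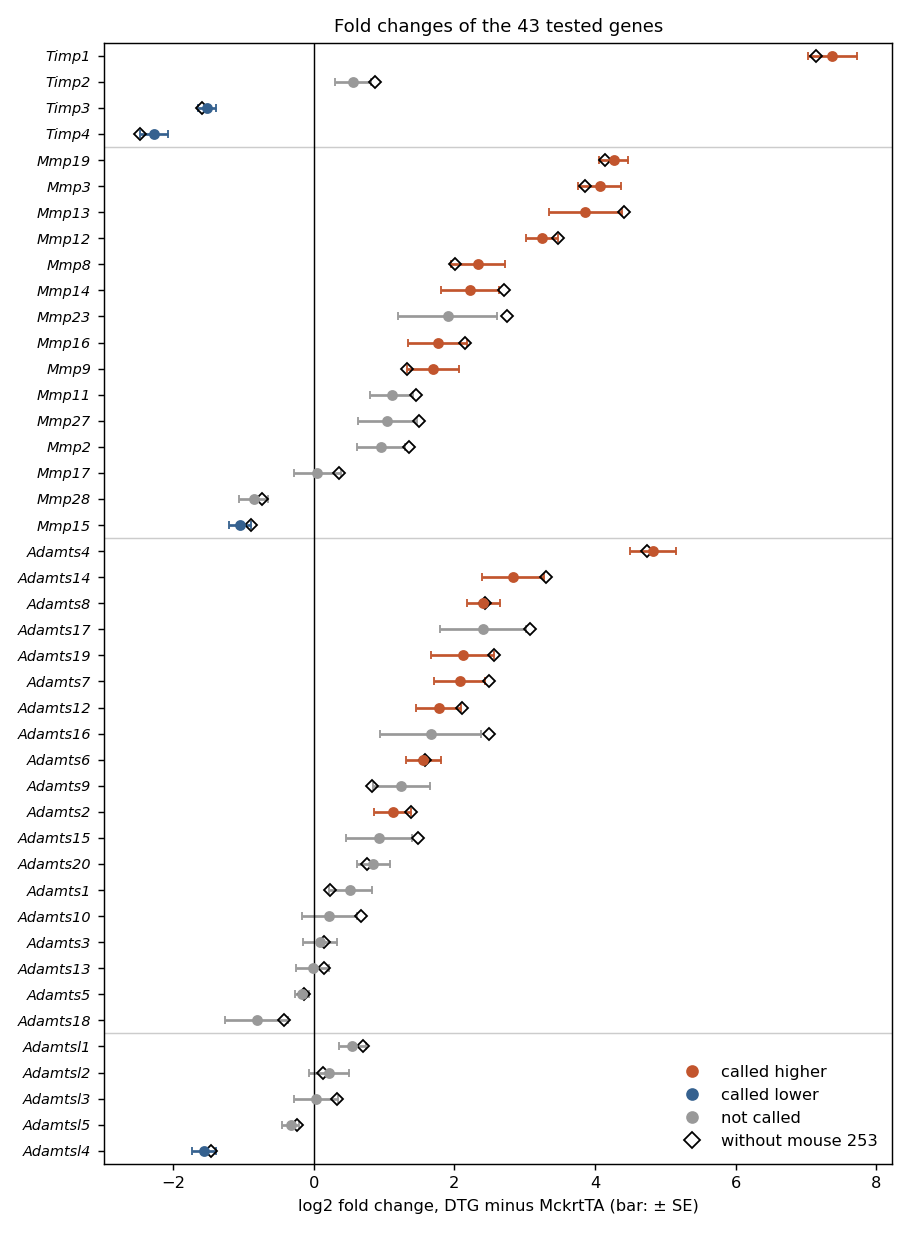
Log2 fold change (x axis, DTG minus MckrtTA) of the 43 tested genes, one per line, grouped as TIMP, MMP, ADAMTS and ADAMTS-like. Circles with bars are the estimate from all 8 mice ± SE, and open diamonds are the estimate without DTG mouse 253. Timp1 at 7.38 stands furthest right, and Timp4 at -2.27 furthest left.

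The inhibitors moved in opposite directions. Timp1, a secreted inhibitor of most MMPs, had signals of 14521, 8347, 9389 and 5453 in DTG mice 253, 282, 283 and 306, and of 62.6, 24.7, 31.5 and 68.2 in MckrtTA mice 255, 280, 281 and 307. The lowest DTG mouse was far above the highest control, whose 4 libraries held 11 to 27 reads each. The log2 fold change was 7.38 ± 0.34 (SE, limma adjusted p 7.85e-07), and the ratio of the group means was 202.

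Timp3, which stays bound to the matrix, had signals of 8081, 7606, 5451 and 6817 in DTG and 19429, 20562, 19193 and 20032 in MckrtTA mice, in the same order of mice. Timp4, a member best known from heart and striated muscle, had 1051, 686, 482 and 634 in DTG and 3540, 3265, 3476 and 3115 in MckrtTA mice. All DTG values of both genes lay below all controls. The log2 fold changes were -1.52 ± 0.12 for Timp3 (limma adjusted p 9.96e-06) and -2.27 ± 0.20 for Timp4 (1.54e-05). With the library totals made equal instead, Timp3 was no longer called, at -0.57, while Timp4 was, at -1.33.

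Timp2, which inhibits MMPs and also helps Mmp14 to activate the Mmp2 precursor, was not called. Its signal was 22602, 22335 and 20847 in DTG mice 282, 283 and 306 but 9500 in mouse 253, against 11642 to 13047 in controls. So 3 DTG mice were above every control and mouse 253 was below every control. The log2 fold change was 0.56 ± 0.26 (limma adjusted p 0.0751).

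**Figure D2:**
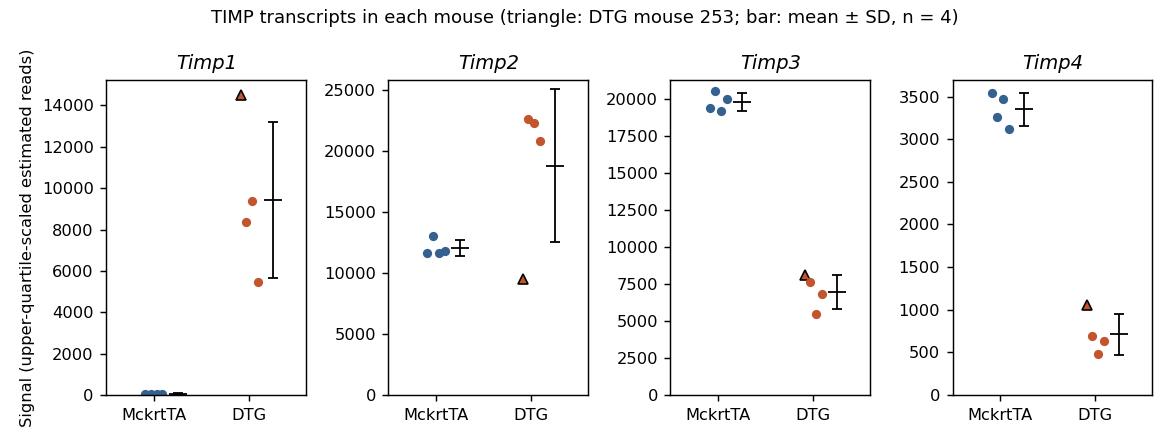
Signal (y axis, upper-quartile-scaled estimated reads, from 0) of the 4 TIMP genes in each mouse, with mean ± SD (n = 4) beside the points and DTG mouse 253 as a triangle. Timp1 was near 0 in controls, Timp3 and Timp4 were lower in all DTG mice, and Timp2 was at 9500 in mouse 253 and 20847 or higher in the other DTG mice.

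The sum of the 4 TIMP signals was 33152 to 39240 in DTG mice and 34342 to 36899 in controls, so the ranges overlapped while the make-up differed. Timp3 made 56.2% ± 0.69 (SD, n = 4) of the summed signal in controls and 19.6% ± 4.06 in DTG mice. Timp1 made 0.134% ± 0.064 in controls and 26.5% ± 12.1 in DTG mice. Timp4 went from 9.52% to 2.02%, and Timp2 made 34.1% in controls and 51.8% ± 15.6 in DTG mice, with 28.7% in mouse 253. Per kilobase of transcript, which allows genes to be compared, Timp3 had the highest level of the 49 members with a known length in controls (4194 ± 131 signal per kb), followed by Timp2 (3246 ± 182). In DTG mice Timp1 was first (10676 ± 4283), then Timp2 (5075 ± 1688), Mmp2 (3862 ± 1613) and Mmp14 (2453 ± 1120), whose spreads overlap, and Timp3 came 5th (1480 ± 244). Timp1 had been 23rd in controls, at 53.0 ± 24.7.

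**Figure D3:**
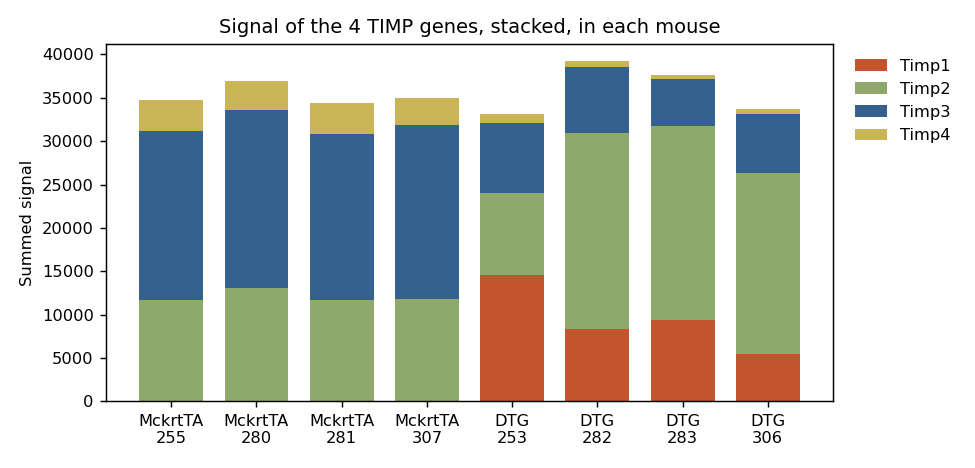
Signals of Timp1, Timp2, Timp3 and Timp4 stacked for each mouse (y axis, summed signal from 0). The bars have about the same height in both groups, and the Timp1 part is visible only in the 4 DTG mice, most of all in mouse 253 at 43.8% of its bar.

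Each of Timp1, Timp3 and Timp4 lies inside a synapsin gene on the other strand, and the signals of these hosts are given beside them. Syn1, around Timp1, had 75.2 to 99.0 in DTG mice and 2.32 to 18.0 in controls. Syn3, around Timp3, had 27.7 to 42.1 in DTG and 91.7 to 125 in controls, and Syn2, around Timp4, 192 to 286 in DTG and 114 to 703.4 in controls. Only the spans of the genes were compared, not their exons. Whether reads were counted by strand is not given in the sources used here. Whether any reads were shared between a guest and its host was not tested.

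The collagenases Mmp13 and Mmp8, which open the triple helix of fibrillar collagen, were close to absent in controls. Mmp13 had signals of 48.8, 262, 199 and 348 in DTG mice 253, 282, 283 and 306 and of 6.96, 0, 5.73 and 0 in MckrtTA mice 255, 280, 281 and 307, where no control held more than 3 reads. Mmp8, the neutrophil collagenase, had 133, 65.8, 55.4 and 27.6 in DTG and 6.96, 4.49, 2.87 and 2.97 in MckrtTA mice. The lowest DTG mouse was above the highest control for both, but it was mouse 253 for Mmp13 and mouse 306 for Mmp8, where mouse 253 was the highest. The log2 fold changes were 3.86 ± 0.52 (limma adjusted p 0.000156) and 2.34 ± 0.38 (0.000484). The other collagenases, Mmp1a and Mmp1b, were listed at 0 in all 8 libraries. A few reads set the control level of both called genes, and their fold changes depend on the 10 added before the logarithm.

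Mmp3, stromelysin-1, which cuts proteoglycans and activates other MMPs, had signals of 1391, 846, 660 and 838 in DTG and 51.0, 44.9, 22.9 and 68.2 in MckrtTA mice. Mmp12, the macrophage elastase, had 1612, 3090, 2620 and 3630 in DTG and 225, 287, 289 and 276 in MckrtTA mice. Both groups were well separated for both genes, with mouse 253 highest for Mmp3 and lowest of the DTG mice for Mmp12. The log2 fold changes were 4.07 ± 0.30 for Mmp3 (limma adjusted p 6.05e-06) and 3.25 ± 0.23 for Mmp12 (4.9e-06). Of the remaining genes of the chromosome 9 run, Mmp27 had 10.1 in mouse 253 and 55.4 to 65.8 in the other DTG mice, against 13.9 to 18.0 in controls, and was not called. Mmp10, stromelysin-2, had 2.56 to 6.21 in DTG mice, from about 2 to 4 reads, and 0 in controls, and Mmp7 and Mmp20 were listed at 0 throughout. Mmp12 overlaps the end of Mmp1b on the other strand, and Mmp1b was at 0.

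Mmp19, a secreted enzyme that cuts basement membrane proteins, had signals of 4077, 3397, 3112 and 2353 in DTG and 139, 187, 189 and 119 in MckrtTA mice. It was the most even of the large increases, with a log2 fold change of 4.27 ± 0.20 (limma adjusted p 8.33e-07) that stayed between 4.14 and 4.41 when any 1 mouse was left out. In signal per kb it was 7th of the 49 members in DTG mice (1147 ± 253) and 22nd in controls (56.2 ± 12.4).

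The gelatinases, which cut denatured collagen and basement membrane collagen, had unlike patterns. Mmp9 had 875, 396, 356 and 214 in DTG and 90.5, 108, 138 and 145 in MckrtTA mice, a log2 fold change of 1.69 ± 0.37 (limma adjusted p 0.00272) with mouse 253 highest. That call was lost in 6 of the 8 fits that left out 1 mouse (all but those without DTG mouse 253 or 306), with an adjusted p of up to 0.00987. Mmp2, the third most abundant member per kb in both groups, had 16068, 14010 and 12746 in DTG mice 282, 283 and 306, but 4730 in mouse 253, below all 4 controls (4791 to 6103). It was not called over all mice, at 0.96 ± 0.34 (limma adjusted p 0.0294).

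Among the membrane-type MMPs, Mmp14, which activates the Mmp2 precursor at the cell surface, rose and Mmp15 fell. Mmp14 had 2066, 8008, 8264 and 7133 in DTG and 960, 1416, 1060 and 1379 in MckrtTA mice. Mouse 253 lay above the highest control but far below the other DTG mice. The log2 fold change was 2.23 ± 0.41 (limma adjusted p 0.000973). Mmp15, its close relative, had 1041, 1543, 1585 and 1719 in DTG and 3425, 2953, 2779 and 2884 in MckrtTA mice, -1.05 ± 0.16 (limma adjusted p 0.00029). Mmp15 was just past the 2-fold limit: it was not called without DTG mouse 253 (-0.89), without MckrtTA mouse 255 (-0.98), in lane 1 alone (-1.26) or lane 8 alone (-0.84), or under any other scaling (-0.10 to -0.79). Mmp16 had 28.6, 113, 117 and 77.7 in DTG and 11.6, 6.74, 20.1 and 26.7 in MckrtTA mice, 1.76 ± 0.42 (limma adjusted p 0.00433), and was not called when any mouse other than 253 was left out, with an adjusted p of up to 0.0155. Mmp17, anchored by a lipid, was not called, at 0.05 ± 0.33.

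Mmp25, another lipid-anchored enzyme known from neutrophils, had 18.5 to 30.3 in DTG and 0 to 8.90 in controls, and was under the low-signal limit with the groups apart. Mmp24 (1.32 to 11.2 over all mice) and Mmp21 (0 to 5.01) were also under it. Of the others that were tested and not called, Mmp11 (stromelysin-3) had a log2 fold change of 1.11, Mmp23 of 1.91, Mmp27 of 1.05 and Mmp28 of -0.85. Mmp28, epilysin, had all DTG values (67.4 to 102) below all controls (137 to 225) and a limma adjusted p of 0.00467, and missed only the 2-fold limit. Summed over the MMPs, the signal was 16546 to 35709 in DTG mice and 9988 to 11777 in controls.

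**Figure D4:**
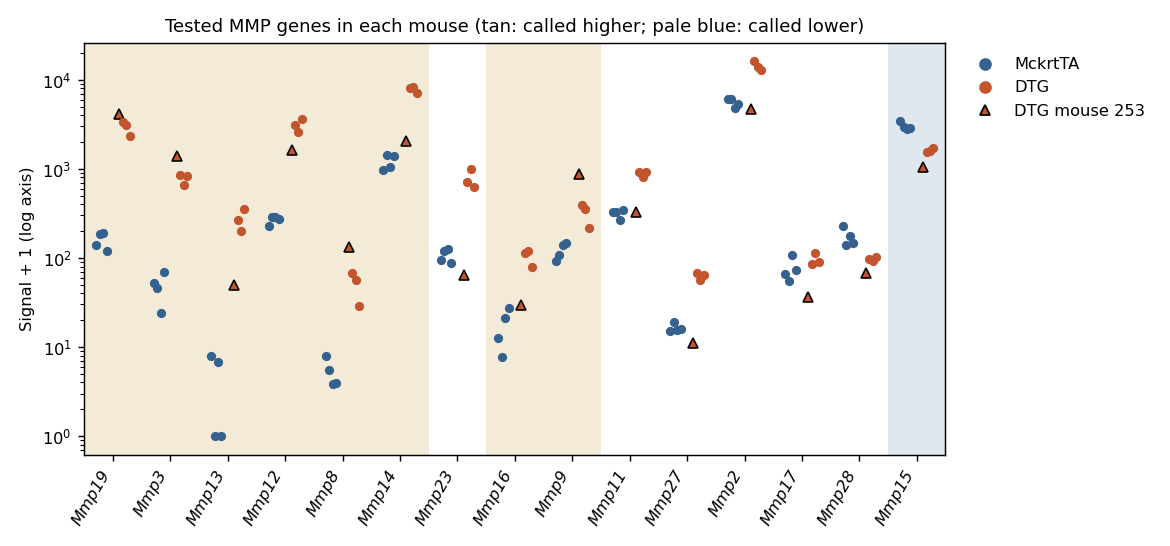
Signal + 1 (y axis, log scale) of the 15 tested MMPs in each mouse, ordered by fold change, with controls on the left and DTG mice on the right of each gene and DTG mouse 253 as a triangle. For Mmp19, Mmp3, Mmp8 and Mmp9 the triangle is the highest DTG point, and for Mmp23, Mmp11, Mmp27 and Mmp2 it lies at or near the controls while the other 3 DTG mice lie above them.

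The proteoglycanases of the ADAMTS family cut versican and aggrecan. Adamts4 had signals of 1830, 1598, 1263 and 1351 in DTG and 25.5, 69.7, 22.9 and 74.2 in MckrtTA mice. The DTG mice lay close together and far above every control. The log2 fold change was 4.83 ± 0.33 (limma adjusted p 3.95e-06), the largest among the ADAMTS genes. Adamts8 had 327, 432, 327 and 279 in DTG and 74.2, 58.4, 63.0 and 32.6 in MckrtTA mice, 2.41 ± 0.24 (limma adjusted p 2.64e-05), again with the groups apart. The other 5 were not called. Adamts1, the most abundant ADAMTS gene per kb in both groups (1244 ± 596 and 830 ± 239), had 10316 in mouse 253 and 4168 to 5641 in the other DTG mice, against 2958 to 5510 in controls. Adamts5, the main aggrecanase of mouse cartilage, had 1655 to 2145 in DTG and 1996 to 2154 in controls, -0.17 ± 0.10. The fold changes of Adamts9, Adamts15 and Adamts20 were 1.25, 0.93 and 0.85 on the log2 scale.

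The procollagen N-proteinases trim the amino end of newly made fibrillar collagens. Adamts14 had signals of 312, 1149, 1120 and 1391 in DTG and 111, 126, 158 and 74.2 in MckrtTA mice, 2.83 ± 0.44 (limma adjusted p 0.000362). Adamts2 had 1031, 2364, 2509 and 1726 in DTG and 726, 894, 937 and 754 in MckrtTA mice, 1.12 ± 0.26 (limma adjusted p 0.00362). In both, mouse 253 was the lowest DTG mouse and still above every control. The call of Adamts2 was lost when any mouse other than 253 was left out, with an adjusted p of up to 0.0126. Adamts3, the third of the group, was not called, at 0.09 ± 0.24.

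Adamts7 and Adamts12, which cut cartilage oligomeric matrix protein, both rose. Adamts7 had 210, 661, 625 and 802 in DTG and 121, 119, 103 and 116 in MckrtTA mice, 2.08 ± 0.36 (limma adjusted p 0.000722). Adamts12 had 450, 1316, 1377 and 788 in DTG and 260, 288, 223 and 249 in MckrtTA mice, 1.78 ± 0.32 (limma adjusted p 0.000887). The controls lay within a narrow range in both genes, and all DTG mice were above it. Comp itself, their substrate, had a log2 fold change of -0.84 and was not called (limma adjusted p 0.123).

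Of the remaining ADAMTS genes, Adamts6 and Adamts19 rose. Adamts6 had 312, 386, 408 and 233 in DTG and 155, 110, 91.7 and 74.2 in MckrtTA mice, 1.56 ± 0.25 (limma adjusted p 0.000438). Adamts19 had 8.42, 46.1, 79.2 and 40.1 in DTG mice, 2.87 (1 read) in MckrtTA mouse 281 and 0 in the other controls, 2.12 ± 0.45 (limma adjusted p 0.0022). The call of Adamts19 was lost when any mouse other than 253 was left out, with an adjusted p of up to 0.00851. Adamts17 had 16.8 in mouse 253 and 138 to 222 in the other DTG mice, against 2.87 to 15.7 in controls, 2.41 ± 0.61, and missed the threshold at an adjusted p of 0.00606. Adamts16 (1.67), Adamts10 (0.22), Adamts18 (-0.81) and Adamts13 (-0.01), the protease of von Willebrand factor, were not called either.

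The ADAMTS-like proteins share the outer domains of the family but have no protease. Adamtsl4, which binds fibrillin microfibrils, had signals of 833, 983, 914 and 1383 in DTG and 3710, 2872, 2894 and 2578 in MckrtTA mice, -1.56 ± 0.17 (limma adjusted p 4.85e-05). All DTG mice were below all controls, and with the library totals made equal it was not called, at -0.61. Adamtsl1, Adamtsl2, Adamtsl3 and Adamtsl5 were not called, with log2 fold changes of 0.55, 0.22, 0.04 and -0.33.

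**Figure D5:**
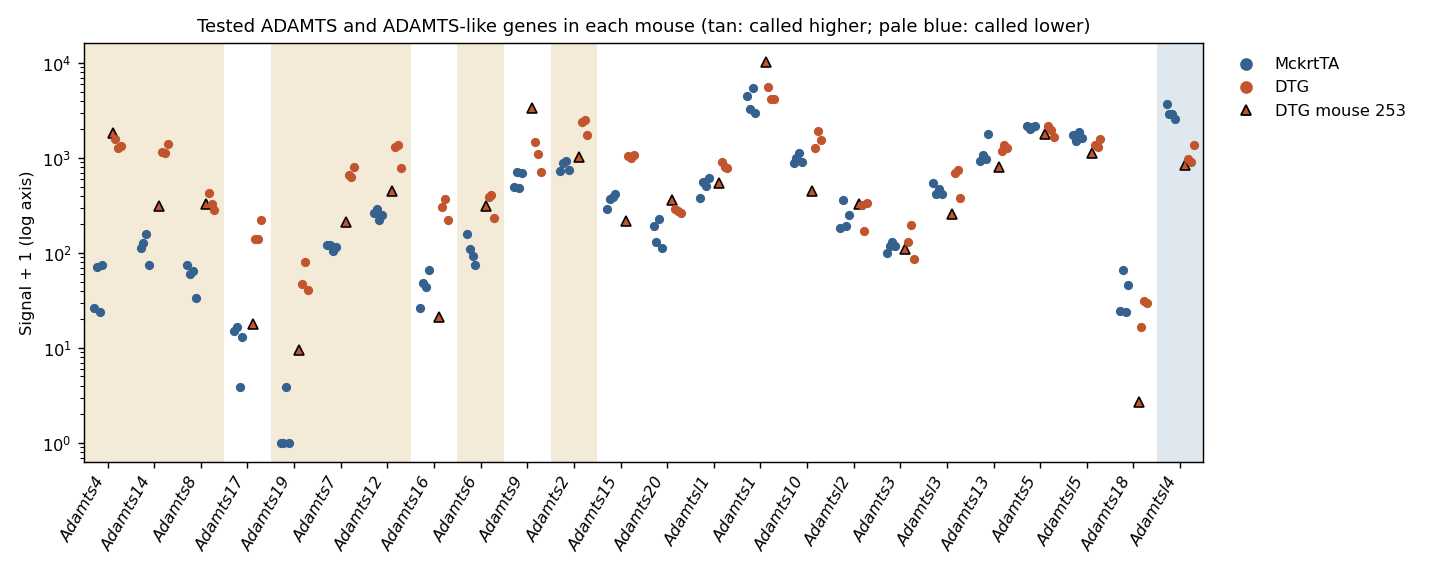
Signal + 1 (y axis, log scale) of the 24 tested ADAMTS and ADAMTS-like genes in each mouse, ordered by fold change, with controls on the left and DTG mice on the right of each gene and DTG mouse 253 as a triangle. Adamts4 has the widest gap between the groups, and in Adamts17, Adamts16 and Adamts15 the triangle lies with or below the controls or just above them.

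DTG mouse 253 stood apart from the other 3 in the members. It was the lowest DTG mouse in 27 of the 43 tested members (62.8%, against 34.9% of all genes tested) and the highest in 11 (25.6%, against 47.6% of all genes). Its Akt1 signal was the highest of all mice, at 69301. It was highest for Timp1, Mmp3, Mmp8, Mmp9, Mmp19, Adamts1, Adamts4, Adamts9 and Adamts20, and also for Timp3 and Timp4, the called-lower inhibitors. It was lowest for the collagenase Mmp13, Mmp2 and its activator Mmp14, Timp2, the procollagen proteinases Adamts2 and Adamts14, and Adamts7 and Adamts12. Without it, 24 members were called higher and 3 lower: all 17 of the former set were kept and Mmp2, Mmp11, Mmp23, Mmp27, Adamts15, Adamts16 and Adamts17 were added, while Mmp15 was lost from the lower set. Over all genes the counts without mouse 253 also went up, from 2207 to 2761 higher and from 2405 to 2878 lower.

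Marker genes of other cells moved with these results, and also with mouse 253. The summed signal of 6 macrophage markers (Cd68, Emr1, Csf1r, Itgam, Lyz2, Mpeg1), all 6 called higher, was 50281 in mouse 253, 127201 to 183447 in the other DTG mice and 3432 to 4226 in controls. Itgam went against that order of the DTG mice, with 10023 in mouse 253 and 5175 to 7102 in the others. The sum of 5 fibroblast markers (Pdgfra, Col1a1, Dcn, Lum, Thy1), 4 of them called higher, was 60073 in mouse 253, 152910 to 205720 in the other DTG mice and 56099 to 72018 in controls. Dcn, which was not called, makes up most of the sum in controls, and it was 33284 in mouse 253 and 43694 to 55339 in controls. In mouse 253 the 4 called markers were above every control, Pdgfra at 7123 (controls 2418 to 2973), Lum at 3381 (1620 to 2313), Thy1 at 1133 (519 to 694) and Col1a1, by little, at 15151 (7033 to 14825). Of the neutrophil markers, S100a8 and S100a9 were called higher and Cxcr2 was not. S100a8 and S100a9 passed the low-signal limit through DTG mice alone, with all controls under 25. The 7 in the table summed to 1287 in mouse 253, 324 to 560 in the other DTG mice and 120 to 203 in controls, while the defining granule genes Elane, Ngp and Camp were at no more than 3 in any library and Mpo at no more than 8. Endothelial markers had 0 of 5 called higher and 1 lower (Kdr), and mural markers 0 of 4 higher and 2 lower (Myh11, Rgs5). Over all genes tested, 14.6% were called higher and 16.0% lower. The part of all these cell types in the protease and inhibitor values was not tested.

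Ratios within a mouse set proteases beside the inhibitors they meet. Mmp14 over Timp2 was 0.218 in mouse 253 and 0.342 to 0.370 in the other DTG mice, and 0.0822 to 0.117 in controls, so the groups did not overlap although mouse 253 had low values of both genes. Mmp2 over Timp2 was 0.498 to 0.711 in DTG mice and 0.412 to 0.516 in controls, and overlapped. Adamts4 over Timp3, the inhibitor of that protease, was 0.198 to 0.232 in DTG mice and 0.0012 to 0.0037 in controls, and was among the most even of the ratios within DTG mice (SD 0.015). Mmp9 over Timp1 went the other way, with 0.0379 to 0.0603 in DTG mice and 1.44 to 4.36 in controls. Summed MMP over summed TIMP signal was 0.499 to 0.916 in DTG mice and 0.291 to 0.336 in controls. These are ratios of transcript signals, not of proteins or of activity.

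Other genes of matrix proteolysis were counted from lists, which were chosen with earlier results of these data known. Over all genes tested, 14.6% were called higher and 16.0% lower. Of 7 tested genes that activate the precursors, 4 rose and 0 fell: Plaur, the receptor of urokinase (log2 fold change 3.48, limma adjusted p 3.45e-06), Plat (1.86, 3.95e-06), Plau, urokinase itself (1.09, 3.76e-05), and Pcsk5 (1.64, 0.000209). Furin, the general proprotein convertase that activates Mmp14 and Adamts4, was not called, at -0.12. Of the other inhibitors and clearance receptors, Tfpi2, a secreted inhibitor of serine proteases, rose (3.72, 5.6e-06), as did Lrp1, which clears proteases from outside the cell (1.73, 0.000204), while Reck, a membrane inhibitor of MMPs, was not called, at 0.02. Of 9 ADAM proteases, the membrane relatives of ADAMTS, 4 rose and 0 fell: Adam8 (6.39, 5.26e-08), Adam12 (5.49, 2.81e-07), Adam15 (1.24, 8.96e-06) and Adam19 (2.24, 0.00117).

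Of 11 tested substrates, 6 rose and 0 fell, where 14.6% of all genes tested were called higher and 16.0% lower. Fn1 (fibronectin) had a log2 fold change of 3.71 (limma adjusted p 2.97e-06), Vcan (versican, cut by Adamts4) of 2.94 (9.22e-06), Fbn1 (fibrillin) of 2.37 (7.76e-05) and Col3a1 of 3.84 (8.57e-05). Acan (aggrecan), Bcan and Ncan were under the low-signal limit. Of 10 known inducers and transcription factors of MMP genes, 7 rose and 1 fell. Fosl1 (4.64, 2.44e-06), Junb (2.84, 7.21e-06) and Il1b (3.62, 2e-05) were among the rises. Bsg, a membrane protein known as an MMP inducer, was the fall (-1.69, 2.97e-06). Of the rises, Fosl1, Il1b and Tnf passed the low-signal limit through DTG mice alone, with all controls under 25. They could be tested only if they were higher in DTG mice. Jun was not called, at -0.83.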

How the data were processed

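Gastrocnemius RNA of 4 DTG and 4 MckrtTA mice was sequenced as paired 50-base reads from stranded, polyadenylated libraries. Per the labels and the study's methods, the authors trimmed the reads, mapped them to the mm10 transcriptome with RSEM, removed spike-ins and scaled each library to its upper quartile. The deposited values are that signal, scaled estimated reads per gene, and not whole counts: 88.5 to 89.8% of low values came within 0.1 of a whole number of reads, so no count test was run. The labels name RSEM and BWA. Only the annotated table was used. A second sheet holds the same values, and the others hold component loadings. No column of per-library values was left out.

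With R 4.3.3 and limma 3.58.1, log2(signal + 10) was fitted by group over 15073 of the 30743 genes (those that reached a signal of 25 in at least 3 of 8 libraries), with variance moderated along the mean and p-values (two-sided) adjusted by Benjamini-Hochberg over all genes tested. A gene was called at an adjusted p under 0.005 and 2-fold or more, the authors' limits, where their test was the exact test of edgeR. Fold changes understate those of low genes because of the 10 added. The fit was tested on simulated data. Library depth was 45.6 to 58.6 M reads. The labels give each mouse its own number, so groups came from genotype labels. Controls were littermates, but which mice shared a litter is not given in the sources used here.

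The members and lists were chosen with earlier results of these data known. All 51 members are named, TIMPs and called members with the signal of every mouse, and from the other lists at most 4 called genes by adjusted p, with a few uncalled genes added after their values were seen. Positions are 1-based on mm10, made from the file's starts by adding 1. Levels per kb use the mean length of the GENCODE transcripts that carry the file's RefSeq IDs, known for 49 of the 51 members. Promoters came from a RefSeq table (GRCm38.p6). Alternatives changed the amount added, the low-signal limit, the scaling, the moderation, the lane, the thresholds and the mice included. The value of 1 gene on these lists is not reported here.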

Additional observations from a re-analysis of the deposited data

Results flagged for a closer look

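Among 86 sets of 4 values (43 tested genes in 2 groups), 10 had 1 mouse so far from the other 3 that the gap to the nearest made up most of the range (past Dixon's 95% limit, which chance passes in about 1 in 20 sets). DTG mouse 253 accounted for 6 of the 10, always as the lowest: Mmp14 at 2066, Mmp11 at 330.1, Mmp27 at 10.1, Adamts14 at 312, Adamts15 at 214 and Timp2 at 9500. In the same 6 genes the other DTG mice lay close together relative to the range, as the rule itself requires. The fibroblast markers Pdgfra, Lum, Thy1 and Col1a1 of that mouse were above every control (Pdgfra 7123 against 2418 to 2973) and Dcn was below every control, as in the other DTG mice (33284 against 43694 to 55339). Beside the other DTG mice, mouse 253 was lower for Lum (3381 against 5986 to 8758) and Thy1 (1133 against 1535 to 2573). It was also lower for Col1a1 (15151 against 105378 to 150882), and within their range for Pdgfra (6418.5 to 9603). The part of fibroblasts in these values was not tested.

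The other 4 were Adamtsl2 in DTG mouse 283, lowest at 169; Adamts5 in MckrtTA mouse 280, lowest at 1996; Timp2 in the same mouse, highest at 13047; and Adamts19 in MckrtTA mouse 281, highest at 2.87, which is 1 read where the other controls had 0.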

How the results depend on the processing

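Over the settings tried, 739 single-gene values kept their direction and side of the threshold, 63 lost the threshold, 28 gained it and 24 changed sign. Timp1, Mmp19 and Adamts4 were called under every setting. With equal library totals the median of all genes moved from -0.26 to 0.65, the calls over all genes from 2207 higher and 2405 lower to 4640 and 301, and the members to 24 higher and 1 lower (Timp4) with a median of 2.04. By trimmed means or medians of ratios all genes gave 2648 and 1401 or 2722 and 1281, and the members 19 and 3. Equal totals turned the sign of Mmp28 (0.028), Adamts5 (0.78), Adamts13 (0.93) and Adamtsl5 (0.61), trimmed means that of Adamts5 (0.086) and Adamts13 (0.24), and medians of ratios that of Adamts5 (0.12) and Adamts13 (0.28). In lane 1 alone 3 members were called higher and 0 lower, from 2 mice a group with mouse 253 among them (54 and 4 over all genes), and the sign turned for Mmp17 (-0.32), Adamts13 (0.14), Adamts10 (-0.10) and Adamtsl3 (-0.21). In lane 8 alone 22 were higher and 3 lower (2505 and 2548 over all genes), and Adamts3 turned (-0.14). Other settings ended single calls: 50 added those of Mmp16 and Adamts19, testing every gene above 0 or the lane as a covariate those of Mmp16 and Adamts2, no moderation along the mean that of Adamts2, and lane 8 alone those of Mmp8, Mmp9, Mmp15 and Mmp16.

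Leaving out 1 mouse gave 13 to 24 members higher, 3 to 4 lower and medians of 0.96 to 1.39, with 1882 to 2761 higher and 2090 to 2878 lower over all genes. Log2 fold changes that changed sign ran from -0.13 to 0.35 for Mmp17, from -0.11 to 0.26 for Adamts3, from -0.029 to 0.67 for Adamts10, from -0.17 to 0.33 for Adamtsl3 and from -0.11 to 0.20 for Adamts13. None of these genes was called. No paired analysis was possible because the labels give each mouse its own number and no number is shared between the groups. Depth limits genes of a few reads: the control levels of Mmp13, Mmp8 and Adamts19 rest on 0 to 3 reads per library.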

Other observations

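Of 3 tested markers of cartilage and tendon, Scx, a transcription factor of tendon cells, was called higher, with signals of 588 to 1046 in DTG mice and 211 to 266 in controls (log2 fold change 1.56, limma adjusted p 6.99e-05). Tnmd, a membrane protein of mature tendon, was not called (-1.16, limma adjusted p 0.0644), with 140 in DTG mouse 253, 576 to 810 in the other DTG mice and 656 to 1323 in controls. Of the satellite cell markers 0 of 3 were called, and Pax7, Myf5 and Itga7 had log2 fold changes of 0.21, 0.72 and 0.96. Itga7 missed only the 2-fold limit (limma adjusted p 5.44e-05), with 15767 to 20178 in DTG mice and 8729 to 10416 in controls.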
